A study of Mus musculus with 8 samples.

Results

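The ADAM genes encode membrane proteins with a disintegrin and a metalloprotease domain. They were taken as every row of the deposited gene tables whose Entrez identifier maps to a symbol of *Adam* followed by a digit, which leaves out the secreted *Adamts* relatives. The rule found 34 of the 21058 genes, all on autosomes. RNA was sequenced from pachytene spermatocytes, germ cells in the long middle stage of meiotic prophase I, of mice kept on a CD1 background. The *Arid1a* WT group (4 libraries) came from males with floxed *Arid1a* alleles and no Cre, either *Arid1a* fl/fl or *Arid1a* fl/+. The *Arid1a* cKO group (4 libraries) came from *Arid1a* fl/fl; *Stra8-Cre* Tg/0 males, in which a germ-line Cre that starts in spermatogonia excises part of *Arid1a*, a subunit of the SWI/SNF BAF chromatin remodeler. As a model, the cKO has known limits: adult males were pooled for each purification, cells were separated by sedimentation at unit gravity (Sta-Put) and fractions rich in pachytene cells were picked under the light microscope and pooled, and excision is incomplete, so that some spermatocytes keep ARID1A. The comparison asks how transcript abundance of the family differs when *Arid1a* is removed from these cells.

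Somatic cells use catalytic members such as ADAM10 and ADAM17 to cut growth factors, cytokines and Notch receptors from the cell surface, a step called ectodomain shedding. Male germ cells of rodents transcribe a large set of testis ADAM genes, among them those of fertilin (ADAM1 with ADAM2) and of ADAM3. ADAM3 on the sperm head is needed for sperm to pass the uterotubal junction and to bind the zona pellucida. ADAM proteins cleave only if their metalloprotease domain holds a zinc-binding site of 3 histidines and a glutamate, and many testis members lack it.

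The zinc-binding site was looked for in the coding sequence of each member, as in-frame codons for histidine, glutamate, any pair, histidine, any pair, glycine, any pair, histidine. It was present in 21 of the 34 members. The 13 members without it were *Adam2*, *Adam3*, *Adam4*, *Adam5*, *Adam6a*, *Adam6b*, *Adam7*, *Adam11*, *Adam18*, *Adam22*, *Adam23*, *Adam29* and *Adam32*. The sites below are shown because they compare the copies that the results turn on with the main somatic sheddases. They are bases of GENCODE M21 transcripts, placed on GRCm38 through the annotation, with the codons of the histidines, the glutamate and the glycine in capitals.
Adam1a (chr5:121520089-121520121, minus strand): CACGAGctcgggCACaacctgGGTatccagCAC
Adam1b (chr5:121501937-121501969, minus strand): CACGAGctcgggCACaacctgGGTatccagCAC
Adam20 (chr8:40795917-40795949, plus strand): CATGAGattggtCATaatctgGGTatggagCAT
Adam39 (chr8:40825636-40825668, plus strand): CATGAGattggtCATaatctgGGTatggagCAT
Adam25 (chr8:40754761-40754793, plus strand): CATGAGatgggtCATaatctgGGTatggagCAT
Adam26a (chr8:43569435-43569467, minus strand): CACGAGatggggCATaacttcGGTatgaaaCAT
Adam26b (chr8:43520947-43520979, minus strand): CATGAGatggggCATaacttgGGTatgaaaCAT
Adam34 (chr8:43651554-43651586, minus strand): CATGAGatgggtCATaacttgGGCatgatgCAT
Adam34l (chr8:43626133-43626165, minus strand): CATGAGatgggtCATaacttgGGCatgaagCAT
Adam10 (chr9:70754296-70761585, plus strand, with an intron between): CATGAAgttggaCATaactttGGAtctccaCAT
Adam17 (chr12:21336732-21336764, minus strand): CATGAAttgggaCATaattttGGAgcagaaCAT
Adam1a and Adam1b were identical over these 33 bases, as were Adam20 and Adam39. Adam25 differed from Adam20 and Adam39 at 1 base, Adam34 from Adam34l at 1 base and Adam26a from Adam26b at 2 bases. The 2 sheddases differed from each other at 7 bases.

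Libraries held 15850961 to 22044507 counts. *Arid1a* itself (chromosome 4) had 105, 128, 121 and 98.8 CPM (counts scaled to library sizes that were adjusted with TMM factors) in *Arid1a* WT and 76.4, 81.0, 82.9 and 78.3 CPM in *Arid1a* cKO, a log2 fold change of -0.51 (standard error 0.07, edgeR, adjusted p = 2.31e-05). The groups did not overlap. These counts cover the whole gene, and the paper's RT-PCR found that *Arid1a* cKO pachytene spermatocytes still make an excised transcript, so the fall does not measure the extent of excision. Of the 10 pachytene marker genes, 7 were lower in *Arid1a* cKO, 1 was higher and 2 were not called, and they summed to 7271 to 7881 CPM in WT and to 4757 to 4833 CPM in cKO. All 18 markers of round and elongating spermatids, the haploid cells that follow meiosis, were higher, by 1.79 to 2.48 log2 units, and summed to 2363 to 2636 CPM in WT and to 11430 to 11795 CPM in cKO. Of the 10 spermatogonial markers, 8 were higher and 1 was lower (median 0.61), with sums of 192 to 198 CPM in WT and 183 to 193 CPM in cKO. The 8 leptotene and zygotene markers split into 4 higher and 4 lower, from -2.68 to 2.50, with sums of 349 to 369 CPM and 299 to 312 CPM, and *Rec8* (2.50) and *Dmc1* (1.98) were among the higher ones while *Spo11* had the lowest value. All 9 Sertoli markers were lower, with sums of 458 to 519 CPM against 132 to 138 CPM, and so were all 7 Leydig markers, with 65.9 to 69.9 CPM against 10.5 to 11.2 CPM. No marker of these lists was at 0 in every library. In RNA from purified populations, fewer cells of a type and less RNA per cell cannot be told apart.

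Of the 34 ADAM genes, 33 had the 10 counts over all libraries that the test required. The exception was *Adam7*, an epididymal gene, with 1 count in 1 *Arid1a* WT library and 0 in the other 7. Transcript abundance rose at 20 members and fell at 8, and 5 were not called at an adjusted p of 0.05 (edgeR quasi-likelihood test, Benjamini-Hochberg adjustment over 17643 genes). Of all genes tested, 74.0% were called, 36.5% higher and 37.5% lower, so a call by itself was not unusual in these data. The median log2 fold change of the tested members was 0.56, beside -0.02 over all genes tested. At 25 of the 33 members the values of one genotype all lay on one side of the other, which was so at 68.9% of all genes tested.

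**Figure D1:**
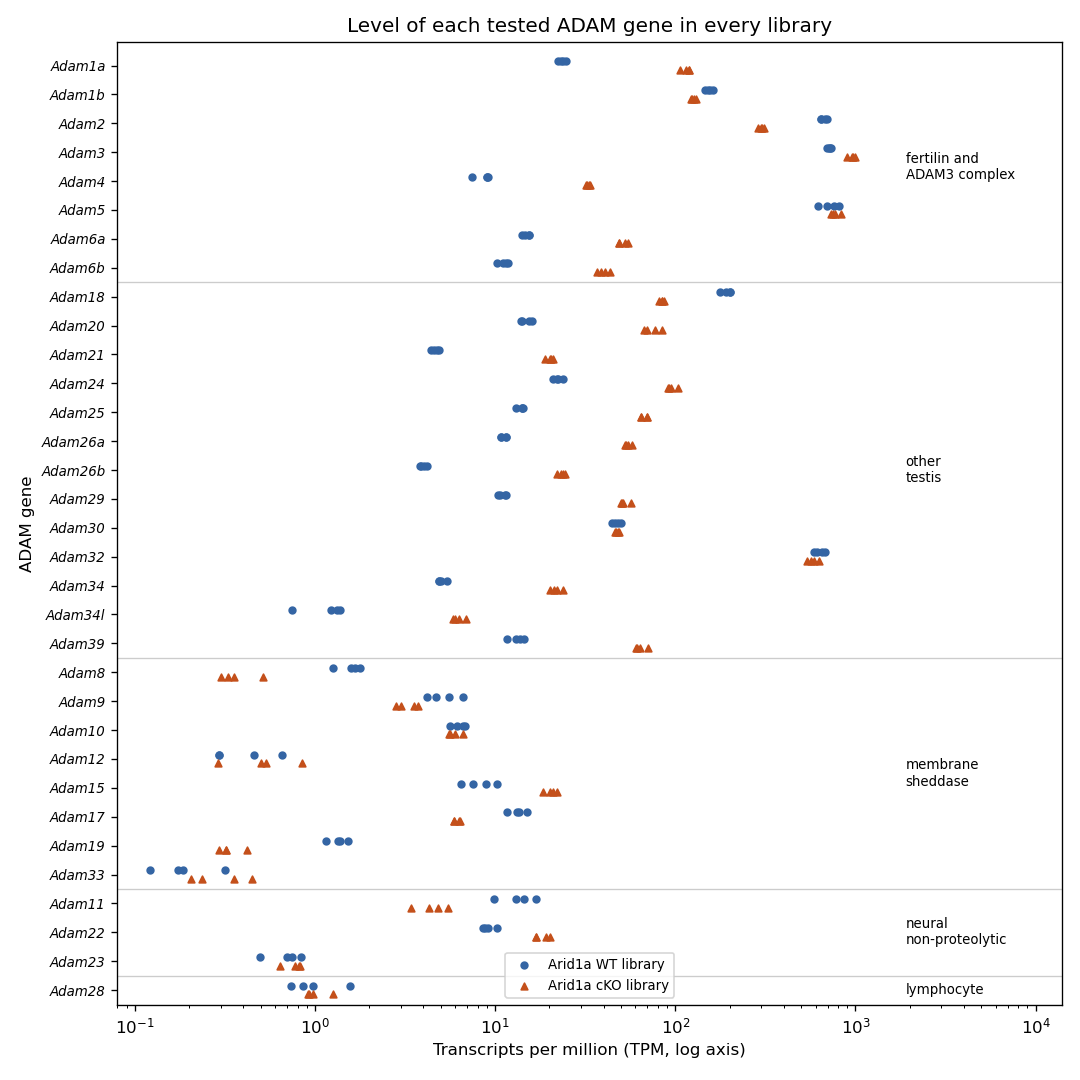
TPM on a log axis of the 33 tested ADAM genes in each library, grouped by role, with circles for the 4 Arid1a WT and triangles for the 4 Arid1a cKO libraries. Adam3 and Adam5 lie between 623 and 997 TPM in both genotypes, whereas Adam1a moves from 22.2 to 24.9 TPM in WT to 106 to 120 TPM in cKO.

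Of the 20 rises, 14 lay in a band from 1.93 to 2.69 log2 units and the other 6 between 0.15 and 1.38. Of the 16 members whose protein is encoded by a single coding exon, 15 rose and 1 (*Adam1b*) fell. Among all tested genes with a single coding exon, 40.7% were called higher and 28.6% lower, with a median of 0.19, and among genes with more than 1 coding exon 36.0% were higher and 38.5% lower, with a median of -0.04. Of the 17 tested members with more than 1 coding exon, 5 rose, 7 fell and 5 were not called. When *Adam1b* and *Adam30* were set aside, a split made after their values were seen, the other 14 single-exon members had log2 fold changes from 1.93 (*Adam6a*) to 2.69 (*Adam26b*), with a median of 2.40, and at none of them did the groups overlap. Over all alternative settings run, their values stayed between 1.59 and 2.74 and each kept its call. These 14 members moved within the range of the spermatid markers (1.79 to 2.48, median 2.21) or just above it. Their summed CPM divided by that of the 18 spermatid markers was 0.111 to 0.116 in *Arid1a* WT and 0.116 to 0.132 in *Arid1a* cKO libraries. The highest markers were *Tsga8* (2.48), *Spaca7* (2.38) and *Akap4* (2.38). The marker list was not split into autosomal and sex-linked genes, and the paper reports that most misexpressed sex-linked genes rose in *Arid1a* cKO. The part of spermatid RNA in the rises of the 14 members was not tested.

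**Figure D2:**
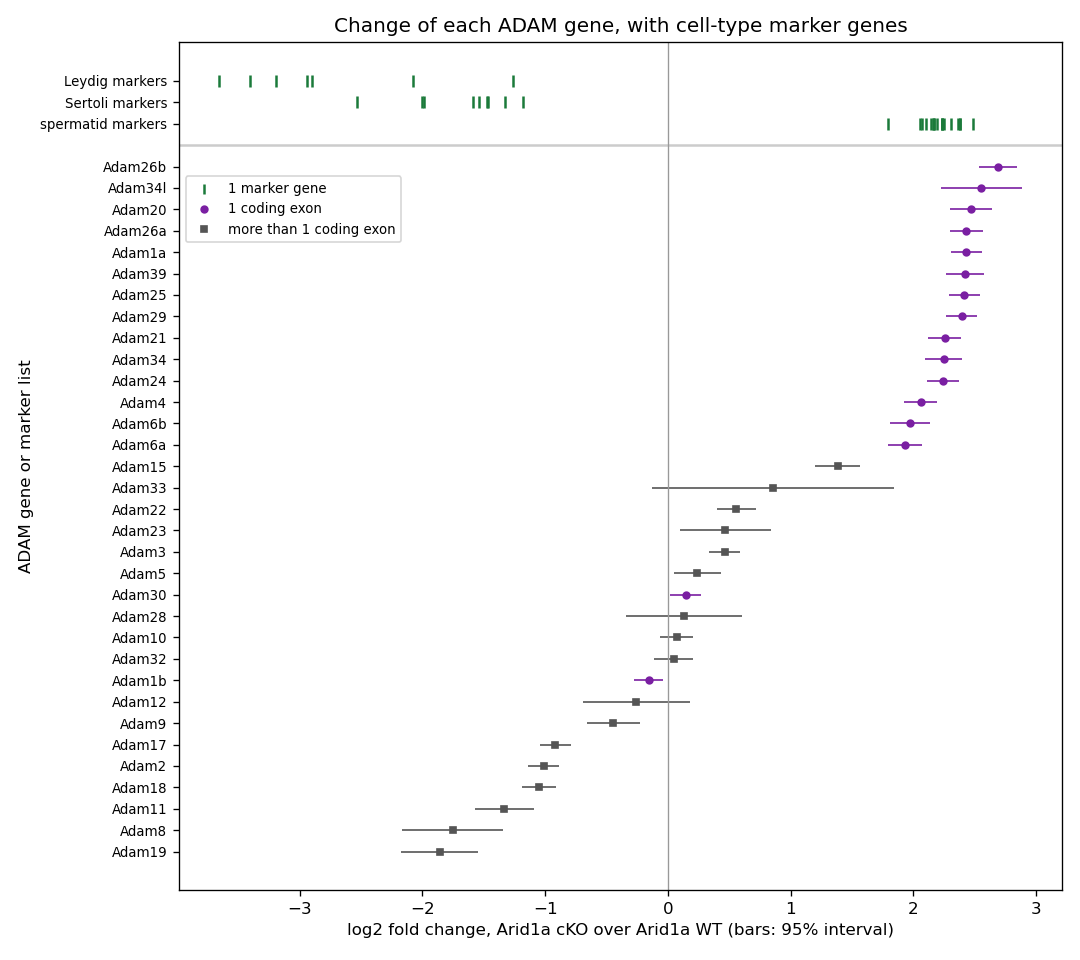
Log2 fold change (cKO over WT, edgeR) of each tested ADAM gene with its 95% interval, ordered by value, with circles for members with a single coding exon and squares for members with more. Short vertical marks at the top show single marker genes of spermatids (1.79 to 2.48), Sertoli cells (-2.54 to -1.18) and Leydig cells (-3.65 to -1.26). 14 circles lie between 1.93 and 2.69, and no square lies above 1.38.

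The fertilin and ADAM3 group holds 8 genes, of which 6 rose and 2 fell, and near relatives parted here. Of all genes tested, 36.5% were called higher and 37.5% lower. The median log2 fold change of the group was 1.20 (values from -1.01 to 2.43), beside -0.02 over all genes tested. *Adam1a*, whose protein pairs with ADAM2 in the endoplasmic reticulum and is required for ADAM3 to reach the sperm surface, had 23.3, 22.2, 24.9 and 23.7 TPM (abundance per transcript length, scaled to the whole library) in the 4 *Arid1a* WT libraries and 120, 119, 115 and 106 TPM in the 4 *Arid1a* cKO libraries. All cKO libraries were far above all WT libraries. The log2 fold change on counts was 2.43 (standard error 0.06, edgeR, adjusted p = 8.28e-14), a 5.39-fold rise. *Adam1b*, which encodes the fertilin subunit found with ADAM2 on the sperm surface, had 152, 157, 147 and 162 TPM in WT and 127, 122, 130 and 124 TPM in cKO. On counts the groups overlapped, at 312 to 368 CPM against 297 to 315 CPM, and the log2 fold change was -0.16 (standard error 0.05, edgeR, adjusted p = 0.0187). The call on *Adam1b* was lost with DESeq2 (adjusted p = 0.0583), with size factors of DESeq2 within edgeR and with autosomal TMM factors, and it also depended on single libraries. The size of the fall depended on the setting, from -0.12 to -0.44 over the alternatives that kept all libraries, and on TPM the groups did not overlap. The ratio of *Adam1a* to *Adam1b* TPM was 0.153, 0.142, 0.169 and 0.146 in WT and 0.944, 0.974, 0.882 and 0.859 in cKO. A two-sided exact permutation test of the log2 ratio gave p = 0.0286, the smallest that 70 assignments allow. The pair was chosen after its values were seen, so this p only restates that the ratios did not overlap.

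*Adam1a* (chr5:121518604-121521695) and *Adam1b* (chr5:121500096-121503435) are neighbours on the minus strand, 15.2 kb apart. Both have a single coding exon, of 791 codons in *Adam1a* and 806 in *Adam1b*. The 250 bases before each RefSeq start of GRCm38.p6 are shown because these paralogs moved so differently. Capitals mark CAACTG, the reverse complement of the MYB core CAGTTG, and no other motif searched was present.
Adam1a (chr5:121521696-121521945, minus strand): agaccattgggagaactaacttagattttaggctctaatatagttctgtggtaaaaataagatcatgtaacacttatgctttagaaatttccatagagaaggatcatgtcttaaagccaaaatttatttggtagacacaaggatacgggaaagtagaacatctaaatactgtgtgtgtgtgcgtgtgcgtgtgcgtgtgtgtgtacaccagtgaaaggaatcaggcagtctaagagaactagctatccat
Adam1b (chr5:121503436-121503685, minus strand): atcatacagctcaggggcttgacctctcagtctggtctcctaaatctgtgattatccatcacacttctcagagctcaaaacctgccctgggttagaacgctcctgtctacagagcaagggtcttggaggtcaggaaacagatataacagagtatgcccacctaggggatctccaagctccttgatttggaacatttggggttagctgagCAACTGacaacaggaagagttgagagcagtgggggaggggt
The longest run shared by both windows was 7 bases. Only unbroken runs were measured and the windows were not aligned, so how much upstream sequence the paralogs share was not determined. The MYB core stood in the window of *Adam1b* and not in that of *Adam1a*. A-MYB is a transcription factor that acts in pachytene spermatocytes, and a match of letters is no evidence of its binding.

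*Adam1a* is a gene whose count is uncertain. Of the 31-base words in its transcripts, 78.4% occur in transcripts of other genes, 14.8% in those of *Adam1b*, and the GENCODE annotation has *Mapkapk5* and *Gm42878* overlapping it on the same strand and *Tmem116* on the other. *Adam1b* shared 33.4% of its words with *Adam1a*, and *Tmem116* overlaps it too on the opposite strand. Whether counting used the strand of the reads is not given in the sources used here. Summed over both genes, CPM went from 396 ± 23.7 (SD, n = 4) to 601 ± 22.1 (SD, n = 4), with no overlap and a log2 ratio of 0.60, smaller than that of *Adam1a* alone because *Adam1b* supplies most of the WT counts.

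*Adam2* encodes fertilin beta, the partner of both ADAM1 proteins. It had 679, 640, 646 and 695 TPM in *Arid1a* WT and 310, 303, 299 and 286 TPM in *Arid1a* cKO, so every cKO library was at less than the lowest WT library. The fall was 2.02-fold on counts (log2 fold change -1.01, standard error 0.06, edgeR, adjusted p = 1.09e-09). *Adam3*, the member on which zona binding and oviduct passage depend in the mouse, went the other way, from 731, 708, 694 and 724 TPM in WT to 997, 966, 961 and 891 TPM in cKO. Its groups did not overlap either, and the log2 fold change was 0.46 (standard error 0.06, edgeR, adjusted p = 6.95e-06). *Adam3* and *Adam2* stood nearly level in WT, at a TPM ratio of 1.08, 1.11, 1.07 and 1.04, and apart in cKO, at 3.22, 3.19, 3.21 and 3.11. A two-sided exact permutation test of the log2 ratio gave p = 0.0286, the smallest possible. This pair too was chosen after its values were seen, so the p only restates that the ratios did not overlap.

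**Figure D3:**
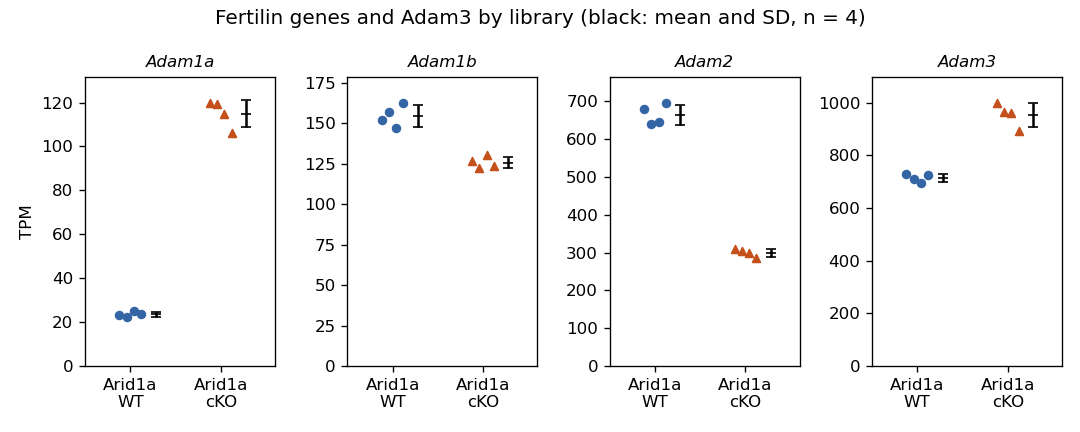
TPM of Adam1a, Adam1b, Adam2 and Adam3 in each library, with the mean and SD of 4 libraries beside the points and a vertical axis from 0 in each panel. Adam1a rises from a mean of 23.5 to 115 TPM, Adam1b lies at 154 and 126 TPM, Adam2 falls from 665 to 300 TPM and Adam3 rises from 714 to 954 TPM.

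The other members of this group encode proteins that form complexes with ADAM3 on sperm. *Adam4* (chromosome 12) had 12.6, 14.6, 14.1 and 15.1 CPM in WT and 59.3, 59.8, 56.9 and 59.1 CPM in cKO, a log2 fold change of 2.06 (standard error 0.06, edgeR, adjusted p = 5.14e-13). *Adam6b* had 19.8, 16.6, 17.8 and 20.1 CPM in WT and 80.9, 70.2, 73.7 and 66.8 CPM in cKO, a log2 fold change of 1.97 (standard error 0.08, edgeR, adjusted p = 7.96e-12). Both genes were several fold higher in every cKO library than in any WT library. *Adam6a*, 52.1 kb from *Adam6b*, rose by 1.93 log2 units, and since these copies share about 41% of their words their summed CPM is the safer value, 43.4 ± 3.11 in WT and 167 ± 12.3 in cKO (SD, n = 4), a log2 ratio of 1.95 with no overlap. *Adam4* shares 33.3% of its words and is overlapped on its strand by *Cox16* and *Gm20498*. *Adam5*, among the most abundant members in both genotypes at 721 ± 81.8 TPM in WT and 772 ± 42.5 TPM in cKO (SD, n = 4), was called higher by 0.24 log2 units on counts (standard error 0.09, edgeR, adjusted p = 0.0258) although its groups overlapped. That call was lost without TMM scaling, with transcript length offsets and on the TPM scale, where the difference turned to -0.049 once TPM was rescaled to the listed genes.

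Factors that ADAM3 needs on its way to the mature sperm surface were counted from a list of 12 genes. 6 rose, 4 fell and 2 were not called, beside 36.5% of all tested genes called higher and 37.5% called lower. *Pmis2*, which encodes a membrane protein needed for sperm migration, rose by 2.24 log2 units, from 14.9 ± 0.827 to 70.6 ± 4.43 CPM (SD, n = 4; edgeR, adjusted p = 3.08e-13). *Pdilt*, a testis protein disulfide isomerase that folds ADAM3, rose by 2.12 log2 units, from 62.7 ± 4.76 to 273 ± 11.6 CPM (SD, n = 4; edgeR, adjusted p = 3.17e-13). *Prss37*, *Calr3* and *Ace* rose by 2.01, 2.01 and 1.99. *Cmtm2a* rose by 0.27. The falls were led by *Tex101*, a GPI-anchored germ cell protein, from 301 ± 23.7 to 108 ± 8.15 CPM (log2 fold change -1.48, edgeR, adjusted p = 5.91e-11), and by *Clgn*, the chaperone calmegin on which fertilin assembly depends, from 1622 ± 89.3 to 962 ± 30.0 CPM (-0.75, edgeR, adjusted p = 1.01e-08). *Ly6k* and *Rnase10*, the latter best known as a secreted protein of the epididymis, fell by 0.72 and 0.62. Of the 5 proprotein convertases, which remove the prodomain, *Furin* (0.42) and *Pcsk4* (0.13) rose and *Pcsk7* fell (-1.14).

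The other testis ADAM genes numbered 13, of which 11 rose, 1 fell and 1 was not called, with a median log2 fold change of 2.39. Over all tested genes 36.5% were called higher and 37.5% lower, with a median of -0.02. *Adam26b* had the largest rise among the 33 tested members, from 6.73, 6.13, 5.92 and 6.92 CPM in *Arid1a* WT to 44.0, 40.7, 41.9 and 38.8 CPM in *Arid1a* cKO (log2 fold change 2.69, standard error 0.07, edgeR, adjusted p = 1.81e-13). *Adam34l* followed, from 1.93, 1.10, 1.91 and 2.14 CPM to 10.7, 9.88, 11.3 and 9.57 CPM (2.55, standard error 0.15, edgeR, adjusted p = 1.28e-09). *Adam20* went from 24.6, 23.0, 26.0 and 26.8 CPM to 159, 129, 143 and 125 CPM (2.47, standard error 0.08, edgeR, adjusted p = 1.24e-12). The groups of these 3 genes did not overlap, and the *Adam34l* values rested on 24 to 47 counts in each WT library. *Adam26a*, *Adam39*, *Adam25*, *Adam29*, *Adam21*, *Adam34* and *Adam24* rose by 2.43, 2.42, 2.41, 2.39, 2.25, 2.25 and 2.24 log2 units. *Adam24*, *Adam25* and *Adam26a* encode the testases, plasma membrane proteases of testis and sperm, and *Adam24* is known for a part in the block to polyspermy.

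Several of these genes are near copies, so reads could have been split between them. Of the 31-base words of *Adam25*, *Adam39* and *Adam20*, 48.0%, 51.0% and 42.4% also occur in transcripts of another gene. For *Adam26a* and *Adam26b* these shares were 49.8% and 54.0%, and for *Adam34* and *Adam34l* 45.1% and 40.5%. Summing over copies left the size of the rise where it was, but a sum covers only the words shared among the summed copies. *Adam20*, *Adam25* and *Adam39* together went from 71.6 ± 4.22 to 387 ± 30.5 CPM, a log2 ratio of 2.43. *Adam26a* with *Adam26b* went from 24.4 ± 1.77 to 139 ± 6.84 CPM (2.50), and *Adam34* with *Adam34l* from 9.97 ± 0.732 to 49.2 ± 3.39 CPM (2.30), all with n = 4, SD and no overlap. *Adam34* shares only 18.7% of its words with *Adam34l*, and *Adam34l* only 21.1% with *Adam34*. The pseudogenes *Gm35629* and *Gm5347* also overlap *Adam34* on its strand, so the sum of this pair leaves part of the sharing out. RefSeq places *Adam34* (chr8:43650309-43665560) within the span of *Adam34l* (chr8:43624889-43703424), both on the minus strand, whereas in GENCODE these genes do not overlap. How this nesting bears on their separate counts was not tested. *Adam21*, *Adam24*, *Adam29* and *Adam30* have under 1% of such words, with log2 fold changes of 2.25, 2.24, 2.39 and 0.15.

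*Adam20* and *Adam25* also have alike upstream sequence. Their windows are shown because, of the chromosome 8 members with a RefSeq promoter window, this pair had the longest run in common, 88 bases, in capitals.
Adam20 (chr8:40793023-40793272, plus strand): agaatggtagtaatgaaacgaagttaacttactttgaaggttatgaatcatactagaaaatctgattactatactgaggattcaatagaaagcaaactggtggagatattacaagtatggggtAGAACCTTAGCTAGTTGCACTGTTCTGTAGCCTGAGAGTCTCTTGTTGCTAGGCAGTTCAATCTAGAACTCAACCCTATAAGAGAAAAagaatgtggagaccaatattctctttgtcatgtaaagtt
Adam25 (chr8:40751958-40752207, plus strand): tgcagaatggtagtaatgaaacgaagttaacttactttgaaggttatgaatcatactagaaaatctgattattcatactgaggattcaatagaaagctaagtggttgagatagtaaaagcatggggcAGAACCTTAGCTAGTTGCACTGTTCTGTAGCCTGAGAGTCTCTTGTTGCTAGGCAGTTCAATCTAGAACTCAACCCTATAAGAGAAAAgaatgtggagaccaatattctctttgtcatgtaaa
Of the 34 members, 18 had a RefSeq window. CAGTTG, on either strand, was in the windows of 6 of these genes (*Adam1b*, *Adam6a*, *Adam6b*, *Adam8*, *Adam19* and *Adam34l*), and in 11.1% of 32851 windows of all genes. Of these 6 genes, 3 rose and 3 fell. TGACGTCA, the palindrome bound by CREM and its relatives, was in none of the 18 genes' windows and in 1.55% of all windows, and ACAATGG, a SOX motif, was in none and in 3.02%.

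The 7 germ-cell members outside the band (*Adam1b*, *Adam2*, *Adam3*, *Adam5*, *Adam18*, *Adam30* and *Adam32*) ranged from -1.05 to 0.46. *Adam18*, a sperm surface member without the zinc site, had 302, 258, 267 and 303 CPM in *Arid1a* WT and 146, 130, 136 and 134 CPM in *Arid1a* cKO. All cKO libraries were lower, and the log2 fold change of -1.05 (standard error 0.06, edgeR, adjusted p = 1.23e-09) was close to the -1.01 of *Adam2*. *Adam32* was at 633 ± 41.9 TPM in WT and 580 ± 39.3 TPM in cKO (SD, n = 4), with a log2 fold change of 0.05 on counts (95% interval -0.11 to 0.20, edgeR, adjusted p = 0.581). The sign for *Adam32* turned in 6 settings, and with TPM rescaled to the listed genes it was -0.28 and called. *Adam30*, the only single-exon member besides *Adam1b* outside the band, was at 47.3 ± 2.25 TPM in WT and 47.5 ± 1.31 TPM in cKO (SD, n = 4). Its log2 fold change of 0.15 (standard error 0.06, edgeR, adjusted p = 0.0375) came with overlapping groups, was not called without TMM, with transcript length offsets or on the TPM scale, and turned to -0.14, called lower, with TPM rescaled to the listed genes.

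Chromosome 8 carries 14 members. The first cluster (chr8:24602246-25017040) holds *Adam18*, *Adam3*, *Adam5*, *Adam32* and *Adam9*, all with more than 1 coding exon, of which 2 rose, 2 fell and 1 was not called, with log2 fold changes from -1.05 to 0.46. The second cluster (chr8:40675077-40826861) holds *Adam24*, *Adam25*, *Adam20* and *Adam39*, and the third (chr8:43519864-43703424) *Adam26b*, *Adam26a*, *Adam34l* and *Adam34*. All 8 genes of these clusters rose, by 2.24 to 2.47 and by 2.25 to 2.69. *Adam29* stands alone further along, at 2.39. Of all genes tested, 36.5% were called higher and 37.5% lower. On chromosome 12, *Adam4*, *Adam21*, *Adam6b* and *Adam6a* rose and *Adam17* fell. On chromosome 5, *Adam1a* (2.43) and *Adam1b* (-0.16), single-exon neighbours 15.2 kb apart, parted. *Adam32* and *Adam9* are only 692 bases apart, on one strand, and neither was among the rises.

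**Figure D4:**
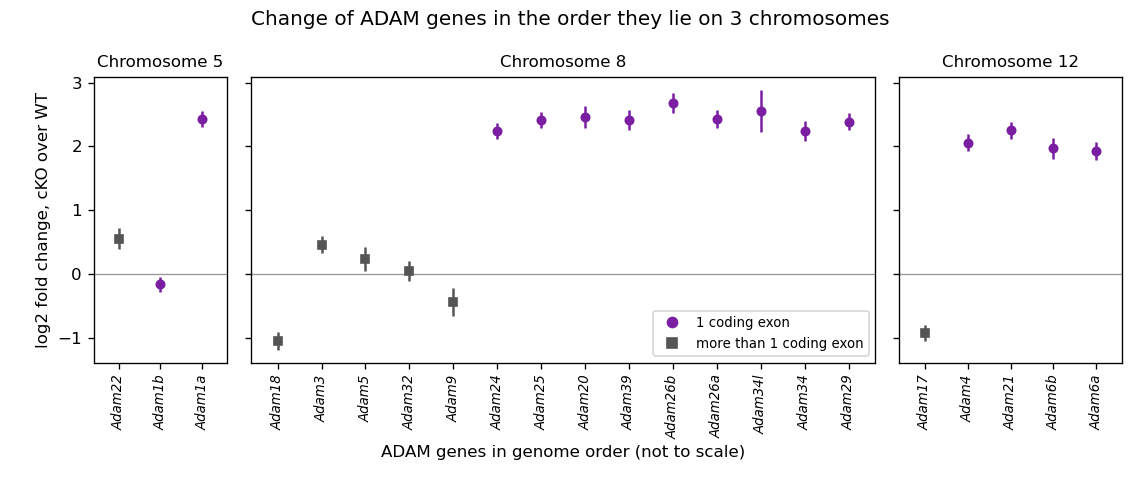
Log2 fold change (cKO over WT, edgeR, bars for the 95% interval) of the ADAM genes on chromosomes 5, 8 and 12 in the order they lie, not to scale, with circles for members with a single coding exon and squares for members with more. On chromosome 8 the 5 members on the left lie between -1.05 and 0.46 and the 9 on the right between 2.24 and 2.69.

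The members were also counted by the zinc site. Of the 12 germ-cell members with the site, 11 rose and 1 (*Adam1b*) fell, with a median of 2.41. Of the 9 without it, 6 rose, 2 fell and 1 was not called, with a median of 0.46. Over all tested genes 36.5% were called higher and 37.5% lower, with a median of -0.02. The difference between members with and without the site was not tested. The 4 single-exon members that lack the site (*Adam4*, *Adam6a*, *Adam6b* and *Adam29*) all rose, by 1.93 to 2.39, while the 5 germ-cell members with more than 1 coding exon all lack it. Among the germ-cell members without the site, the single-exon and the multi-exon members thus did not overlap in log2 fold change (1.93 to 2.39 against -1.05 to 0.46). No germ-cell member had the site and more than 1 coding exon.

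These changes altered the make-up of ADAM RNA more than its amount. All members together held 3349 ± 172 TPM in *Arid1a* WT and 3642 ± 173 TPM in *Arid1a* cKO (SD, n = 4), or 0.335% and 0.364% of TPM. As a share of the TPM of the listed genes alone, the values were 0.421% and 0.412%, so the direction of this difference rests on the scale. The 5 germ-cell members with more than 1 coding exon (*Adam2*, *Adam3*, *Adam5*, *Adam18* and *Adam32*) made up 87.4% ± 0.661 of ADAM TPM in WT and 73.8% ± 0.266 in cKO (SD, n = 4). The 14 single-exon members in the band made up 4.50%, 4.72%, 5.23% and 4.62% in the WT libraries and 19.9%, 19.5%, 19.7% and 19.8% in the cKO libraries. These 14 were set apart by their rises, so their larger share follows from that choice. All 16 single-exon members together made up 10.8% ± 0.423 in WT and 24.5% ± 0.240 in cKO (SD, n = 4). *Adam1b* with *Adam30* went from 6.03% to 4.76%, and the somatic members from 1.84% to 1.70%. In order of mean TPM, WT ran *Adam5*, *Adam3*, *Adam2* and *Adam32* (721, 714, 665 and 633), whose first 2 did not differ beyond their spread, and cKO ran *Adam3*, *Adam5*, *Adam32* and *Adam2* (954, 772, 580 and 300).

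**Figure D5:**
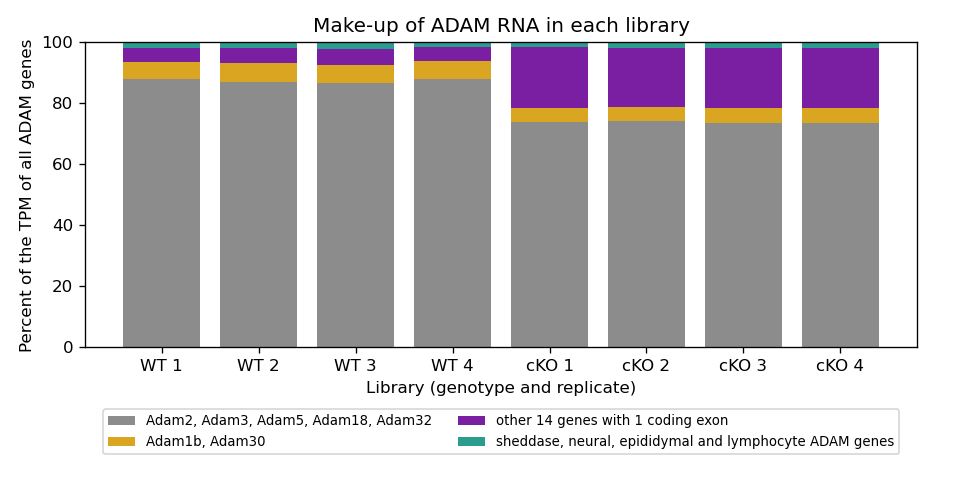
Share of the summed TPM of all ADAM genes in each library, as stacked bars of 4 groups of members that add to 100%. The 14 other single-exon genes take 4.50% to 5.23% in the WT and 19.5% to 19.9% in the cKO libraries, and the group of Adam2, Adam3, Adam5, Adam18 and Adam32 shrinks to match.

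Of the 8 membrane sheddases, 1 rose, 4 fell and 3 were not called, with a median log2 fold change of -0.35. Over all tested genes 36.5% were called higher and 37.5% lower, with a median of -0.02, and the difference between the group and the rest was not tested. *Adam17*, which encodes TACE, the protease that releases TNF and ligands of the EGF receptor, had 36.9, 33.7, 35.0 and 33.1 CPM in *Arid1a* WT and 18.3, 18.4, 17.8 and 18.9 CPM in *Arid1a* cKO. It fell 1.89-fold without overlap (log2 fold change -0.92, standard error 0.06, edgeR, adjusted p = 2.36e-09). *Iah1* overlaps it on the opposite strand. *Adam10*, which encodes the main protease that cuts Notch and cadherins, had 18.6, 19.3, 18.6 and 17.7 CPM in WT and 20.6, 18.5, 19.9 and 18.8 CPM in cKO. Its groups overlapped, and the log2 fold change of 0.07 (95% interval -0.06 to 0.21, edgeR, adjusted p = 0.315) turned negative without TMM and on the TPM scale.

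*Adam15* was the one sheddase that rose. It had 8.56, 7.87, 9.73 and 7.28 CPM in WT and 20.7, 22.1, 22.7 and 21.5 CPM in cKO, a log2 fold change of 1.38 (standard error 0.09, edgeR, adjusted p = 1.93e-09) with no overlap. Of its words, 18.2% are shared with other genes. *Adam19* had the largest fall among the tested members, from 6.23, 5.72, 6.32 and 5.14 CPM to 1.56, 1.54, 1.39 and 1.99 CPM (log2 fold change -1.86, standard error 0.14, edgeR, adjusted p = 2.47e-08). *Adam8*, best known from leukocytes, fell from 3.07, 2.84, 2.91 and 2.64 CPM to 0.861, 0.742, 0.670 and 1.16 CPM (-1.75, standard error 0.19, edgeR, adjusted p = 1.05e-06), on 58 to 62 counts in each WT and 13 to 18 in each cKO library. Both genes lay lower in every cKO library than in any WT library, as did *Adam9* (-0.44, standard error 0.10, edgeR, adjusted p = 0.00119). On log2(TPM + 1), which damps low genes, the falls of *Adam19* and *Adam8* were -0.81 and -0.90, and with rescaled TPM -0.96 and -1.06. *Adam12* and *Adam33* had few counts, 18 to 33 and 2 to 8 a library, and gave intervals of -0.69 to 0.18 and -0.13 to 1.84. The falls came beside those of the Sertoli and Leydig markers given above. Among 8 macrophage and blood markers, 5 rose and 1, *Hba-a1*, fell by 2.12 log2 units (5.21 to 6.19 CPM summed in WT, 12.2 to 14.2 CPM in cKO). Of the 6 peritubular and endothelial markers, 4 rose and 1 fell (13.95 to 19.61 CPM summed in WT, 20.69 to 24.11 CPM in cKO). The part of these cells in the sheddase results was not tested.

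Partners and targets of the sheddases were counted from fixed lists in the same way. Among the 6 TspanC8 tetraspanins, which carry ADAM10 to the surface, *Tspan5* fell from 59.4 ± 3.89 to 19.9 ± 1.57 CPM (SD, n = 4; log2 fold change -1.58, edgeR, adjusted p = 3.43e-11). *Tspan17* (-1.38) and *Tspan33* also fell, *Tspan14* rose (0.46) and 2 were not called. Of the 3 genes for iRhoms and their partner, which mature ADAM17, *Frmd8* fell (-0.79), *Rhbdf1* rose (0.67) and *Rhbdf2* was not called. Among 5 inhibitors, *Timp3*, the TIMP that blocks ADAM17, fell from 17.7 ± 2.63 to 6.50 ± 0.970 CPM (SD, n = 4; -1.44, edgeR, adjusted p = 6.61e-08). *Reck* (-0.64) and *Timp2* (-0.42) fell, *Timp4*, at about 1 CPM, rose (1.57) and 1 was not called. Of 16 tested substrates, 3 rose, 6 fell and 7 were not called. The 2 largest falls and the 2 largest rises were those of *Tgfa* (from 22.8 ± 1.55 to 1.45 ± 0.287 CPM, log2 fold change -3.96, edgeR, adjusted p = 4.06e-13) and *Hbegf* (-2.02), and of *Notch4* (2.33) and *App* (0.98). Over all tested genes 36.5% were called higher and 37.5% lower. *Tgfa* and *Hbegf* encode EGF receptor ligands that ADAM17 releases. The other falls were those of *Kitl* (-1.41), *Cdh2* (-1.12), *Notch2* (-0.74) and *Egf* (-0.49), the other rise was that of *Il6ra* (0.46), and *Tnf* (0.67) and *Btc* (0.19) were among those not called.

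ADAM11, ADAM22 and ADAM23 have no zinc site and serve neurons as receptors for secreted LGI proteins. *Adam11* had 34.9, 38.1, 35.0 and 25.8 CPM in WT and 14.4, 11.7, 14.2 and 12.7 CPM in cKO (log2 fold change -1.33, standard error 0.11, edgeR, adjusted p = 6.1e-08). *Adam22* had 18.5, 17.7, 20.0 and 16.4 CPM in WT and 27.1, 25.1, 29.1 and 25.3 CPM in cKO (0.56, standard error 0.07, edgeR, adjusted p = 8.95e-06). Neither gene's groups overlapped, and they moved in opposite directions. The size of the *Adam22* rise depended on the scale, at 1.09 log2 units with transcript length offsets, 0.92 on log2(TPM + 1), 0.98 on log2(TPM + 0.1) and 0.78 with TPM rescaled to the listed genes. *Adam23* was low, at 1.19, 1.28, 1.20 and 1.50 CPM in WT and 1.88, 1.83, 1.72 and 1.74 CPM in cKO, and its call (0.47, standard error 0.17, edgeR, adjusted p = 0.0247) was lost with DESeq2 (adjusted p = 0.0842), without TMM, with transcript length offsets and on the TPM scale. Of 4 LGI genes, *Lgi2* rose (0.91) and 3 were not called. *Adam28*, known from lymphocytes and epididymis, was at 1.50 to 3.01 CPM in WT and 1.96 to 2.74 CPM in cKO (0.13, 95% interval -0.34 to 0.60, edgeR, adjusted p = 0.608). Beside the family, 24 *Adamts* and *Adamtsl* relatives were tested, of which 10 rose, 5 fell and 9 were not called, with a median of 0.17 (36.5% higher, 37.5% lower and a median of -0.02 over all tested genes).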

How the data were processed

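Reads were quantified with Salmon by the authors, summed to Entrez genes with tximport on mm10 annotation, and deposited as estimated counts and as TPM. The TPM deposited by the authors are scaled to the whole library, so the 21058 listed genes sum to less in *Arid1a* WT (780735 to 811443) than in *Arid1a* cKO (880901 to 886412). The authors' table of DESeq2 fold changes and p-values was not used. Symbols came from RefSeq GRCm38.p6, which matched 21036 genes. Columns and samples were joined through the genotype and replicate number in both, which left 0 columns over.

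Estimated counts were rounded, although whole counts had been foreseen, and 17643 genes with at least 10 counts over 8 libraries were tested with edgeR 4.0.16 in R 4.3.3 (TMM, glmQLFit, glmQLFTest, genotype as the only factor, calls at 0.05 after Benjamini-Hochberg adjustment). CPM used TMM-adjusted library sizes. The standard error is the log2 fold change over the square root of F. A floor for genes at 3 counts or fewer in every library of a genotype, which covers counting error only, was not needed for any tested member. In other lists, *Tspan10*, *Timp1* and *Lgi3*, none of them called, lay at or below it in a genotype and kept their fitted values. The labels call the libraries biological replicates, but separate purifications are not stated, so p-values measure the spread between these samples. Pairs of libraries differed by more than counting noise, with a chi-square over its degrees of freedom of 4.09 to 16.7 in WT and 1.67 to 3.26 in cKO. The common biological coefficient of variation was 0.0709. The test was first run on simulated data.

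Members and gene lists were chosen with earlier results of these data known. Values by library are given for *Adam1a*, *Adam1b*, *Adam2*, *Adam3*, *Adam10*, *Adam17* and, in each role group, the 3 largest rises and falls among called genes whose groups did not overlap and whose log2 CPM averaged at least 0. Of other lists, counts and the 2 largest changes each way are given, and further genes named were chosen after their values were seen. Coding exons, zinc sites and shared 31-base words came from GENCODE M21 transcripts and annotation, and upstream windows from RefSeq. Alternatives were DESeq2 1.42.0, other scalings and filters, transcript-length offsets, limma 3.58.1 on log2(TPM + 1) and log2(TPM + 0.1), a threshold of 0.01, a replicate block and leaving out each library. TPM rescaled to the listed genes and sums over copies were added after the data were seen. Tables and plots were made in Python 3.11.15 with pandas 2.3.3, numpy 2.4.6 and matplotlib 3.10.9.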

Additional observations from a re-analysis of the deposited data

Results flagged for a closer look

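Dixon's test at the 95% level found a library apart from the other 3 in 4 of 68 groups of 4 libraries, and about 3.4 such groups arise by chance. Replicate 2 of *Arid1a* WT was lowest for *Adam1a* (50.3 CPM against 55.5 to 56.3, gap over range 0.875), for *Adam24* (39.0 CPM against 43.0 to 43.3, gap over range 0.932) and for *Adam34* (7.77 CPM against 8.28 to 8.38, gap over range 0.838). In *Arid1a* cKO, replicate 1 was highest for *Adam29* (113 CPM against 98.3 to 99.9, gap over range 0.886). All these values lay on their own genotype's side of the gap between groups.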

How the results depend on the processing

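Over all settings, 611 member results kept their direction and side of the threshold, 18 turned sign, 28 lost and 1 gained a call, and the cause was not tested. The median log2 fold change of all genes moved from -0.02 to -0.12 without TMM and to -0.13 with TPM rescaled to the listed genes. With rescaled TPM, 5 germ-cell members were called lower in place of 3. The share of ADAM RNA differed by 0.0293 percentage points of TPM, by 0.0669 of counts and, turning sign, by -0.0087 of the TPM of the listed genes, a scale chosen after seeing the data. With rescaled TPM *Adam3* was at 0.26 and *Adam9* at -0.69, both still called. The sign turned for *Adam10* (-0.029 without TMM, -0.066 on log2(TPM + 1), -0.075 on log2(TPM + 0.1), -0.20 rescaled), *Adam12* (0.43 with length offsets, 0.11 on log2(TPM + 1), 0.28 on log2(TPM + 0.1), 0.070 rescaled) and *Adam32* (-0.050 without TMM, -0.034 with length offsets, -0.13 on both TPM scales, -0.28 rescaled). With rescaled TPM it also turned for *Adam5* (-0.049), *Adam23* (-0.0018), *Adam28* (-0.080) and *Adam30* (-0.14). Leaving out single libraries moved *Adam32* between -0.011 (without WT replicate 3) and 0.12. It ended the call of *Adam1b* without WT replicate 4 or cKO replicates 2 or 4 (-0.10, -0.14 and -0.15), of *Adam5* without WT replicate 2 or cKO replicate 1 (0.21 and 0.19), of *Adam23* without WT or cKO replicate 1 (0.43 and 0.44) and of *Adam30* without WT replicates 2 or 3 or cKO replicates 1, 3 or 4 (0.12, 0.10, 0.13, 0.14 and 0.16). Without WT replicate 3, *Adam33* was called higher (1.19). Same-numbered libraries correlated at 0.0328, 0.0349, 0.0357 and -0.0299, so they share only a number, and with the replicate block 20 members were called higher and 8 lower, with 6429 and 6671 of all genes. *Adam7*, *Adam12* and *Adam33* had few counts, and the part of depth in their results was not tested.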
